A study of Homo sapiens with 36 samples.

Results

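The hypoxia-inducible factor (HIF) subunits and their oxygen-sensing regulators were followed as a family of 10 genes in LNCaP cells, an established line derived from a lymph node metastasis of prostate cancer. The members were the alpha subunits HIF1A and EPAS1, the beta subunit ARNT, the long non-coding HIF1A-AS3 on the strand opposite HIF1A, the prolyl hydroxylases EGLN1, EGLN2 and EGLN3, the ubiquitin ligase receptor VHL, the asparaginyl hydroxylase HIF1AN and the coactivator competitor CITED2. They were matched by Ensembl identifier to 10 of the 29872 genes in the table. Each of the 12 groups held 3 libraries: cells received vehicle, AU2-94 at 1 or 2 µM, atirmociclib at 1 or 2 µM, or ribociclib at 2 µM, and RNA was taken after 24 h or 72 h. All 3 agents are CDK4 inhibitors, AU2-94 and atirmociclib being described as selective for CDK4 and ribociclib acting on CDK4 and CDK6. Wells for 72 h were seeded at a lower density than those for 24 h, so time and density cannot be told apart. The family was chosen from a first reading of these same libraries, in which HIF1A-AS3 was among the genes raised by treatment at 24 h. Values of treated against vehicle cells are therefore given as description, and their p-values are not printed. Where such a value is said to pass, this marks its size against its error and lends no support, since the choice used these contrasts. Tests that the choice did not use are those of compounds at a matched dose, of dose and of vehicle over time. They still share libraries with the contrasts that it used, and the test of vehicle over time shares the vehicle libraries. A gene is said to pass where its limma p, adjusted by the Benjamini-Hochberg method over all genes of a contrast, was at most 0.05, and genes were fitted where at least 3 of the libraries in the fit held at least 10 normalised counts.

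In oxygenated cells the EGLN enzymes hydroxylate prolines of the alpha subunits, VHL then binds them for ubiquitination, and the proteasome removes them. HIF1AN hydroxylates an asparagine of the alpha subunits and blocks their contact with the coactivators EP300 and CREBBP, for which CITED2 competes. When oxygen is short the alpha subunits escape this control, pair with ARNT and bind DNA at elements with the core ACGTG or GCGTG, and EGLN1, EGLN3 and CITED2 are among the genes known to respond. Alpha subunit activity is set mostly through protein stability, which RNA sequencing does not read.

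Library totals ran from 20675156 to 22692555 normalised counts, the unit in which the authors deposited the table and the scale of every level below. The 5 luminal markers KLK3, KLK2, FOLH1, TMPRSS2 and HOXB13 were detected in every library, with a summed level of 53577 to 59651 under vehicle and 74214 to 116031 under treatment. Markers that define basal, stromal, endothelial and leukocyte cells (TP63, KRT5, COL1A2, DCN, PECAM1, CDH5, PTPRC and CD3E) had a median of 0. The remaining marker of each of these lists was present, COL1A1 at 194 to 644 normalised counts, VWF at 184 to 713, CD68 at 34.9 to 144 and KRT14 at 4.35 to 88.6 over the 36 libraries. Summed over its list, the basal level was 4.35 to 25.2 under vehicle and 23.2 to 88.6 under treatment. The part of luminal and basal levels in the results was not tested. In bulk RNA a lower level from fewer cells of a kind cannot be told apart from less RNA per cell.

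The 250 bases before the RefSeq start (GRCh38.p14) are shown for HIF1A-AS3 (chr14:61751098-61751347, minus strand) and EGLN3 (chr14:33951075-33951324, minus strand), the members with the highest differences above vehicle at 24 h, for EGLN1 (chr1:231422288-231422537, minus strand), the most abundant prolyl hydroxylase, and for HIF1A (chr14:61695263-61695512, plus strand), whose gene HIF1A-AS3 overlaps. Capitals mark ACGTG and GCGTG on the printed strand or their reverse complements CACGT and CACGC.
HIF1A-AS3: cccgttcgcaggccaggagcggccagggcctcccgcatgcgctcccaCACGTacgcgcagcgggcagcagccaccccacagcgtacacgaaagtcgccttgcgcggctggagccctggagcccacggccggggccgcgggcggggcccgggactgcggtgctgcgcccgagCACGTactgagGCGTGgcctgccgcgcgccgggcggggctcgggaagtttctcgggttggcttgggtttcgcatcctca
EGLN3: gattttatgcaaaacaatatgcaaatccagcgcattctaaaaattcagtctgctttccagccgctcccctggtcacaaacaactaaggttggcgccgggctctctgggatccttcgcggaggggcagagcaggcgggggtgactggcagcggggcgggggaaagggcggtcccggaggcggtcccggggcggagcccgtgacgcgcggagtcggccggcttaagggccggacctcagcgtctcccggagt
EGLN1: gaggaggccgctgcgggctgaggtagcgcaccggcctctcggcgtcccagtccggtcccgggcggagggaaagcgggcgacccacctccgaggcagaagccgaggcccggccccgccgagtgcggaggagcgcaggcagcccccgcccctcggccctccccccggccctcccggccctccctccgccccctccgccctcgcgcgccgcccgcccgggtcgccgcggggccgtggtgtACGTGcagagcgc
HIF1A: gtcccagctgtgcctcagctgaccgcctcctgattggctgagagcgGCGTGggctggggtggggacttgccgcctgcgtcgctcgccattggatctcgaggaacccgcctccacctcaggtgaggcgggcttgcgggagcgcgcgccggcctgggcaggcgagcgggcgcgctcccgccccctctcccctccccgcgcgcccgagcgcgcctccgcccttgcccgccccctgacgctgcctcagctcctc
HIF1A-AS3 held ACGTG at 2 places on the opposite strand, the first reaching from 203 to 199 bases before the start and the second from 79 to 75, and GCGTG from 68 to 64 bases before it. EGLN1 held 1 ACGTG, from 13 to 9 bases before its start, HIF1A held GCGTG alone, and EGLN3 held neither in this window. CITED2 and EGLN2 each held the palindrome CACGTG in 1 of their windows, which is counted on both strands. CITED2 also held GCGTG in each of its other windows, EPAS1 held GCGTG, and ARNT and HIF1AN held neither. Of 35116 RefSeq windows of 250 bases, 18.5% held ACGTG on either strand, 32.2% GCGTG and 43.2% one or the other. Windows were found for 9 of the 10 members, and for VHL none was matched. A match describes letters and does not show binding.

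HIF1A was the most abundant member per kilobase of exon and EPAS1 or HIF1A-AS3 the least. Mean levels per kilobase over the 12 groups ran from 595 to 790.3 normalised counts for HIF1A, from 450.01 to 601 for CITED2, from 353 to 393 for VHL, from 217 to 306 for ARNT, from 206 to 259 for EGLN1, from 89.9 to 116 for EGLN2, from 73.1 to 93.8 for HIF1AN and from 19.0 to 40.3 for EGLN3. HIF1A-AS3 ran from 0.132 to 23.1 and EPAS1 from 1.88 to 10.4. HIF1A exceeded EPAS1 per kilobase by 64.4 to 322 times. The order was kept in most groups, but neighbours were not always separated: the libraries of ARNT and EGLN1 overlapped in 4 of 12 groups, those of EGLN2 and HIF1AN in 4 of 12, and those of EPAS1 and HIF1A-AS3 in 6 of 12. HIF1A-AS3 stood below EPAS1 in both vehicle groups and above it in all 10 treated groups. Among the prolyl hydroxylases EGLN1 made up 58.1% to 65.7% of the summed level per kilobase, and EGLN3 made up 5.66% under vehicle at 24 h and 11.2% under AU2-94 at 1 µM at 24 h.

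**Figure D1:**
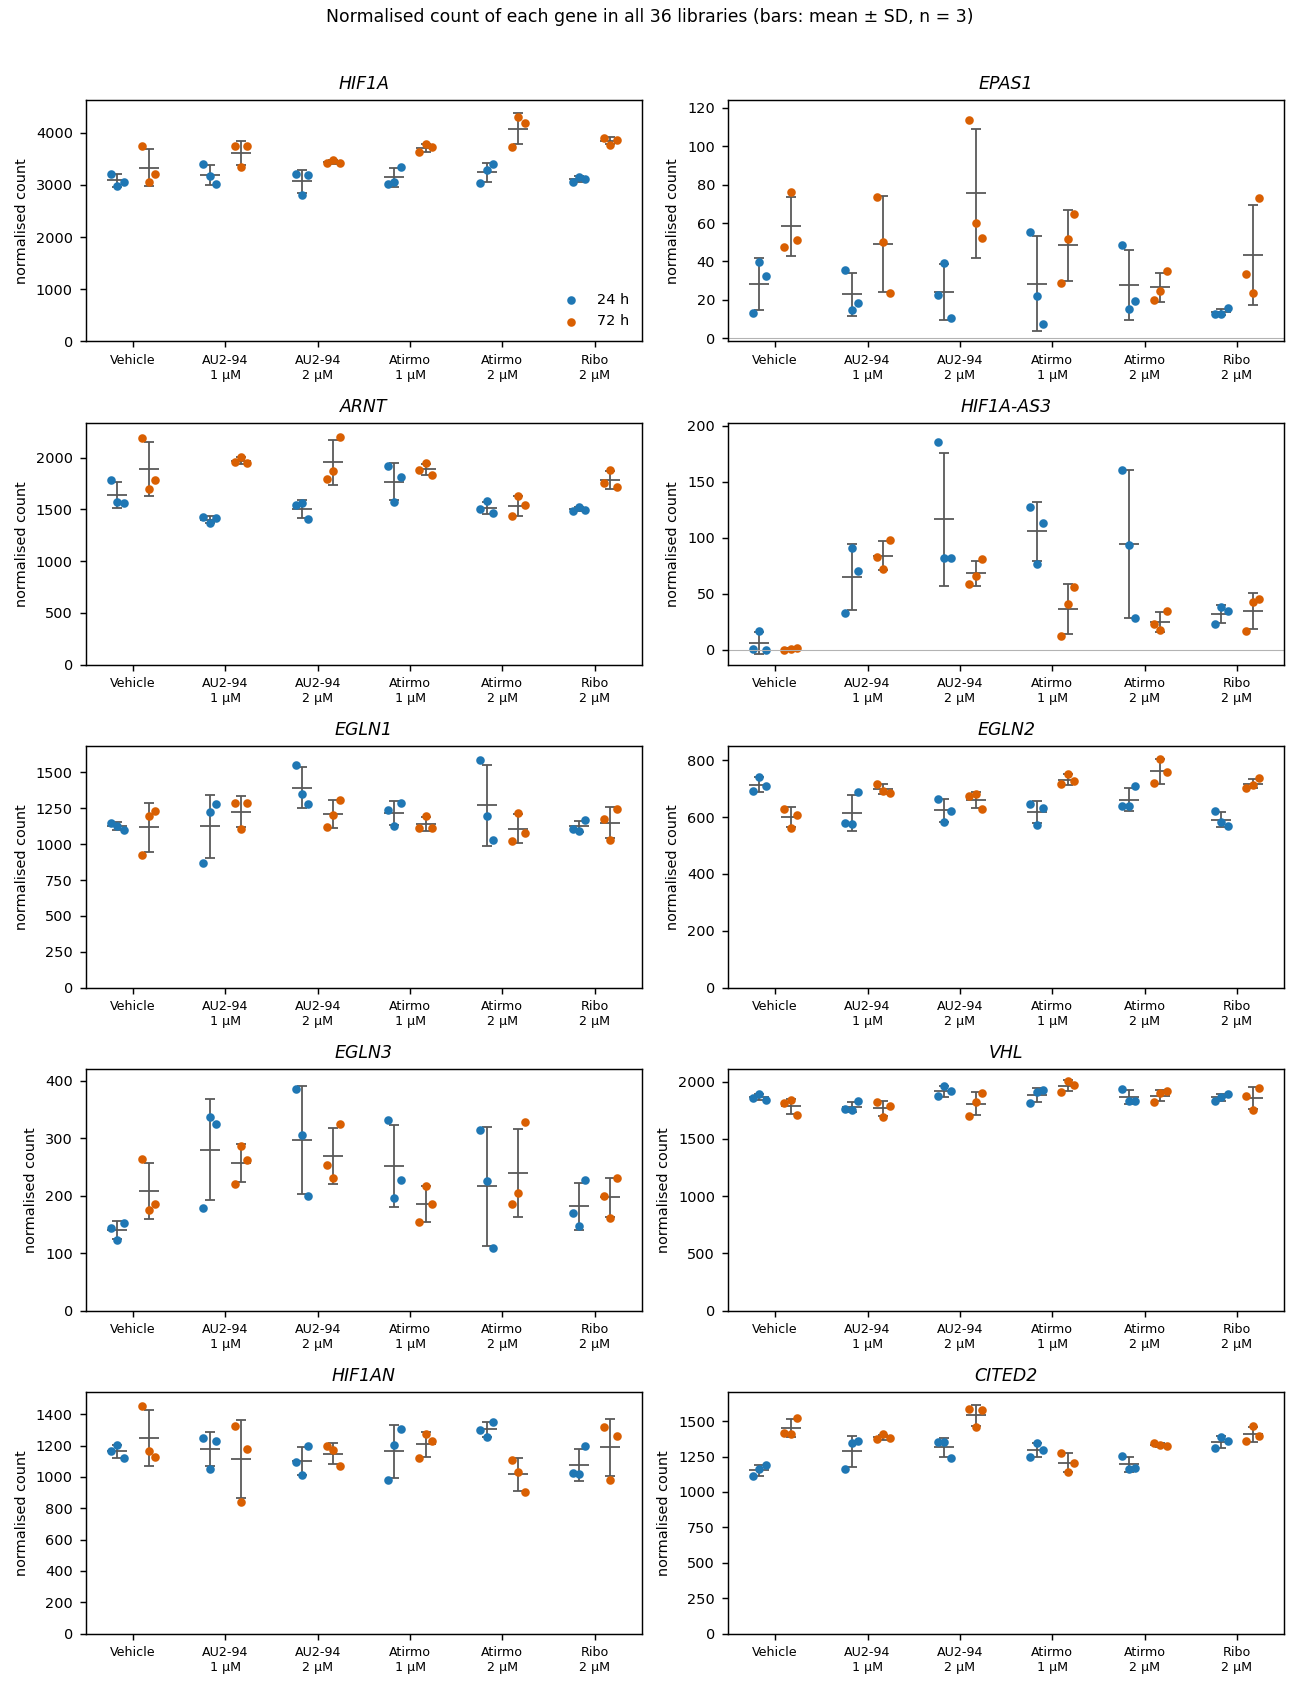
Normalised count (vertical axis, from 0 except where a bar reaches below it) of each of the 10 genes in all 36 libraries, by treatment (horizontal axis) and time (blue, 24 h; orange, 72 h), with bars for mean ± SD of 3 libraries. HIF1A-AS3 lies at 0 to 17.0 in the 6 vehicle libraries and at 12.2 to 185 in the 30 treated ones, VHL stays between 1694 and 2008, and 14 of 15 treated EGLN2 libraries lie under all vehicle libraries at 24 h and 14 of 15 over them at 72 h.

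HIF1A-AS3 (ENSG00000258667, chr14:61707298-61751163, minus strand, GRCh38) was the member that differed most from vehicle. Under vehicle at 24 h its 3 libraries held 0.689, 17.0 and 0 normalised counts. At 24 h AU2-94 gave 33.3, 91.1 and 70.7 at 1 µM and 185, 82.1 and 81.6 at 2 µM. Every AU2-94 library lay above the highest vehicle library. Atirmociclib at 24 h gave 127, 76.6 and 113 at 1 µM and 160.5, 93.5 and 28.5 at 2 µM, and ribociclib gave 23.3, 38.3 and 34.3. The spread was widest for atirmociclib at 2 µM, whose replicate 3 lay close to the ribociclib libraries. At 72 h vehicle held 0, 0.691 and 1.30, at or under the floor of 3 normalised counts, so the differences from it given next depend on the pseudocount and are no measure of fold. AU2-94 at 72 h gave 82.7, 71.8 and 97.8 at 1 µM and 58.4, 65.6 and 80.8 at 2 µM. Atirmociclib at 72 h gave 12.2, 40.8 and 55.9 at 1 µM and 23.0, 17.6 and 35.0 at 2 µM, and ribociclib gave 16.5, 42.7 and 45.4. All 15 treated libraries lay above all 3 vehicle libraries at each time, and both AU2-94 groups lay above the other treated groups at 72 h.

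On log2(normalised count + 1), HIF1A-AS3 exceeded vehicle at 24 h by 4.29, 5.12, 5.06, 4.62 and 3.37 for AU2-94 (1 then 2 µM), atirmociclib (1 then 2 µM) and then ribociclib, each with an SE of 0.78. At 72 h the differences were 5.75, 5.45, 4.33, 4.00 and 4.38, each with an SE of 0.48. The size of these values depends on the pseudocount, since vehicle sits near 0, and they are no bound on the change. With a pseudocount of 8 they became 2.51, 3.27, 3.21, 2.83 and 1.72 at 24 h and 3.40, 3.13, 2.20, 1.91 and 2.23 at 72 h. Vehicle replicate 2 alone held a value above the floor at 24 h, and without it the 5 differences at 24 h were 5.55, 6.38, 6.33, 5.88 and 4.64. Without vehicle replicate 3 they were 3.47, 4.30, 4.24, 3.80 and 2.55. Without replicate 3 of atirmociclib at 2 µM its difference was 5.31, and at 72 h without replicate 1 of atirmociclib at 1 µM that difference was 4.95. HIF1A-AS3 passed the filter on low values at 72 h only through treated libraries, and at 24 h through these and vehicle replicate 2. Its exons overlap those of HIF1A on the opposite strand over 299 bases, 5.93% of its exon length, and share stretches of 110 to 326 bases at 98% identity or more with 8 other genes, of which IFNAR1 (161 bases, mean 2025 normalised counts) was the most abundant. The strand setting of the read counter is not given in the sources used here, so reads from these stretches could not be assigned with certainty. HIF1A, on the other strand, held 3084 normalised counts under vehicle and 3066 under AU2-94 at 2 µM at 24 h, beside 5.89 and 116 for HIF1A-AS3.

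Of the prolyl hydroxylases, EGLN3 (ENSG00000129521, chr14:33924227-34462774, minus strand) held the lowest level and the widest differences at 24 h. Vehicle libraries held 144, 123 and 153 normalised counts at 24 h. AU2-94 gave 179, 336 and 325 at 1 µM and 385, 305 and 199 at 2 µM at that time. Atirmociclib gave 332, 196 and 228 at 1 µM and 315, 226 and 109 at 2 µM, and ribociclib gave 169, 148 and 227. In all, 13 of 15 treated libraries lay above every vehicle library and 1, replicate 3 of atirmociclib at 2 µM, lay below them. The log2 differences were 0.94, 1.03, 0.81, 0.50 and 0.35 (SE 0.33) for AU2-94 (1 then 2 µM), atirmociclib (1 then 2 µM) and then ribociclib, and the 2 AU2-94 groups passed an adjusted p of 0.05. At 1 µM the call was lost without any 1 of the libraries compared other than AU2-94 replicate 1 (log2 difference 0.78 to 1.24), and at 2 µM it was lost without replicate 1 or 2 of AU2-94 or of vehicle (0.82 to 1.29). Both calls were also lost without a trend. At 72 h vehicle held 264, 176 and 186, AU2-94 gave 221, 287 and 261 at 1 µM and 253, 231 and 324 at 2 µM, and the groups overlapped. Differences at 72 h ran from -0.16 to 0.38 on the log2 scale (SE 0.21), and none passed.

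EGLN1 (ENSG00000135766, chr1:231363751-231422287, minus strand), the most abundant prolyl hydroxylase, had treated libraries on both sides of vehicle at 24 h. At 24 h vehicle held 1151, 1129.9 and 1096 normalised counts, and the 15 treated libraries ran from 869.7 to 1584, with 10 above and 3 below every vehicle library. The largest log2 difference was 0.30 ± 0.14 (SE) for AU2-94 at 2 µM at 24 h, and EGLN1 passed in 0 of 10 comparisons with vehicle in limma. EGLN2 (ENSG00000269858, chr19:40798996-40808434, plus strand) lay on opposite sides of vehicle at the 2 times. At 24 h vehicle held 691, 742 and 708, and the treated libraries ran from 569 to 708, 14 of 15 below every vehicle library. At 72 h vehicle held 630.0, 563 and 608, and the treated libraries ran from 629 to 805, 14 of 15 above every vehicle library. The log2 differences of EGLN2 were -0.22, -0.20, -0.21, -0.11 and -0.27 (SE 0.08) at 24 h, of which that of ribociclib passed, and 0.22, 0.14, 0.29, 0.34 and 0.26 (SE 0.07) at 72 h, of which all but that of AU2-94 at 2 µM passed. The call at 24 h was lost without ribociclib replicate 3 or vehicle replicate 2 (log2 difference -0.31 to -0.24), and that of AU2-94 at 1 µM at 72 h without its replicate 1 or vehicle replicate 2 (0.17 to 0.25). A read-through transcript with RAB4B covers 30.6% of the EGLN2 exons on the same strand, and another same-strand gene covers 55.8% of those of EGLN1. Neither of these neighbours had a value of its own here, so their reads cannot be told apart from those of EGLN2 and EGLN1.

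The subunits HIF1A and ARNT passed in few comparisons with vehicle and EPAS1 in none. HIF1A (ENSG00000100644, chr14:61695513-61748259, plus strand) held 3214, 2981 and 3055 normalised counts under vehicle at 24 h, and the treated libraries at that time ran from 2805 to 3396 around them. At 72 h vehicle held 3736, 3051 and 3199, ribociclib gave 3901, 3770.1 and 3859.6, and atirmociclib at 2 µM gave 3731, 4292 and 4189. The vehicle range at 72 h overlapped that of every treated group except ribociclib. Log2 differences of HIF1A were 0.12, 0.05, 0.16, 0.29 and 0.21 (SE 0.07) at 72 h, and those of atirmociclib at 2 µM and ribociclib passed. The ribociclib call was lost without replicate 1 or 3 of ribociclib or replicate 2 or 3 of vehicle (log2 difference 0.15 to 0.30). ARNT (ENSG00000143437, chr1:150809713-150876708, minus strand) held 1783, 1577 and 1562 under vehicle at 24 h and 1425, 1365 and 1417 under AU2-94 at 1 µM, a log2 difference of -0.22 ± 0.07 (SE) that passed. At 72 h ARNT held 2189.8, 1702 and 1779.9 under vehicle and 1433, 1627 and 1540.4 under atirmociclib at 2 µM, a log2 difference of -0.30 ± 0.09 (SE) that passed. The first ARNT call was lost without AU2-94 replicate 2 or vehicle replicate 1 (-0.26 to -0.16), and the second without atirmociclib replicate 1 or vehicle replicate 1 (-0.37 to -0.18). EPAS1 (ENSG00000116016, chr2:46293667-46386697, plus strand) was scarce, with 7.44 to 114 normalised counts over the 36 libraries and a median coefficient of variation within groups of 48.3%. Its largest log2 difference from vehicle was -1.11 ± 0.44 (SE) for atirmociclib at 2 µM at 72 h, and it passed in 0 of 10 comparisons with vehicle in limma.

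VHL (ENSG00000134086, chr3:10141778-10153667, plus strand) was the steadiest member. It held 1694 to 2008 normalised counts over the 36 libraries, with a median coefficient of variation within groups of 2.95% against 45.5% for HIF1A-AS3. Its log2 differences from vehicle ran from -0.07 to 0.14, and it passed in 0 of 10 comparisons in limma. HIF1AN (ENSG00000166135, chr10:100529072-100559998, plus strand) held 837 to 1451, and also passed in 0 of 10, with the widest log2 difference of -0.29 ± 0.14 (SE) for atirmociclib at 2 µM at 72 h. At an unadjusted p of 0.05 or less the counts of 10 were 1 for VHL, 1 for EGLN1, 1 for EPAS1 and 0 for HIF1AN. CITED2 (ENSG00000164442, chr6:139371807-139374648, minus strand) held 1113, 1159 and 1188 under vehicle at 24 h, and 12 of 15 treated libraries lay above all of these. At 72 h vehicle held 1419.6, 1406 and 1522, and 10 of 15 treated libraries lay below all of these. Log2 differences of CITED2 were 0.15, 0.19, 0.17, 0.05 and 0.23 (SE 0.06) at 24 h, with AU2-94 at 2 µM and ribociclib passing, and -0.06, 0.09, -0.26, -0.12 and -0.04 (SE 0.06) at 72 h, with atirmociclib at 1 µM passing. The call of AU2-94 at 2 µM was lost without replicate 1 or 2 of AU2-94 or of vehicle (log2 difference 0.16 to 0.23).

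**Figure D2:**
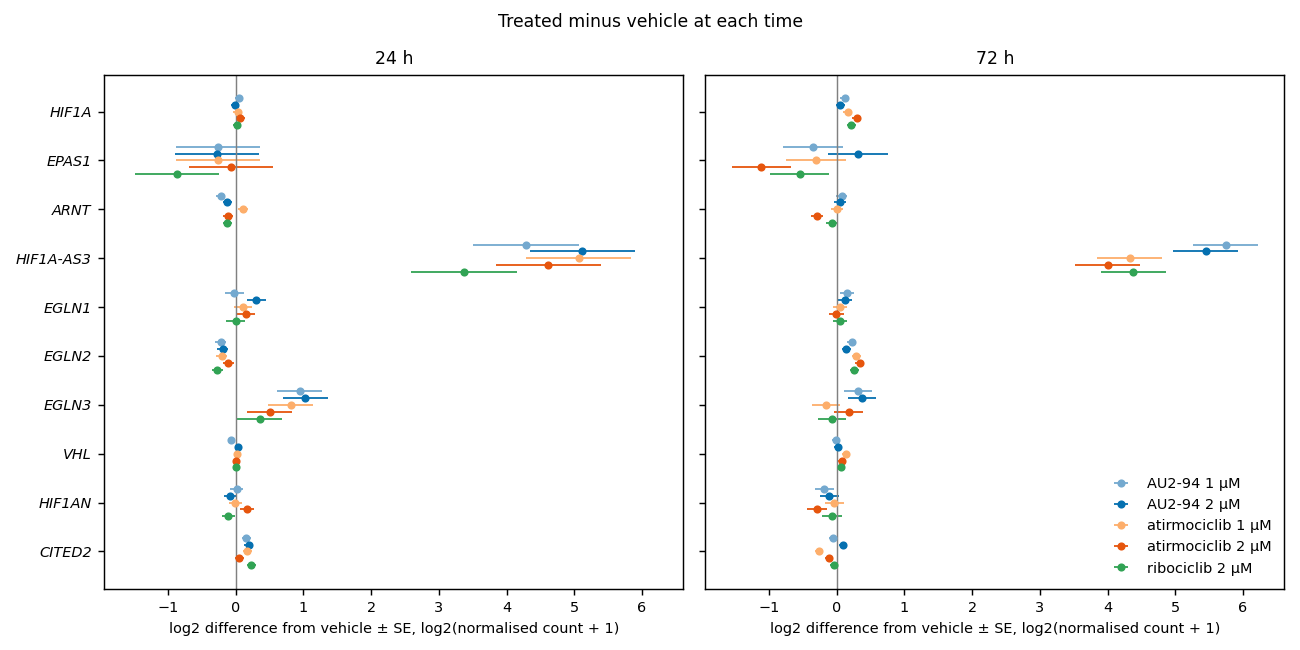
Log2 difference from vehicle (horizontal axis, log2(normalised count + 1), error bars SE) of each gene (vertical axis) for the 5 treatments at 24 h and 72 h. HIF1A-AS3 lies at 3.37 to 5.75 in all 10 comparisons, EGLN3 at 0.35 to 1.03 at 24 h, and the 8 other genes lie between -1.11 and 0.34.

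All 10 members passed the filter on low values in every fit. At 24 h, 3, 3, 1, 1 and 3 of the 10 members passed against vehicle for AU2-94 (1 then 2 µM), atirmociclib (1 then 2 µM) and then ribociclib, where 27.8%, 30.9%, 32%, 34.8% and 31.9% of the 16137 genes tested did. At 72 h, 2, 1, 3, 4 and 3 members passed, where 32.4%, 29.5%, 39.8%, 40.5% and 30.9% of 16341 genes did. Since the family was chosen on these contrasts, nothing is read from the counts, and the 5 comparisons of a time share their vehicle libraries. The differences at 72 h minus those at 24 h passed for EGLN2 under all 5 treatments and for CITED2 under 2, where 21.6%, 18.5%, 21.9%, 21.6% and 20.2% of 16850 genes did in the same order of treatments.

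Compounds were next compared at a matched dose and time, in 8 contrasts that do not use vehicle. Atirmociclib and AU2-94 at 2 µM differed most at 72 h, where 6 of the 10 members passed beside 19.8% of all genes. HIF1A-AS3 was lower under atirmociclib, at 23.0, 17.6 and 35.0 normalised counts against 58.4, 65.6 and 80.8, with no overlap, a log2 difference of -1.44 ± 0.48 (SE; limma adjusted p = 0.0392). EPAS1 was lower too, at 20.1, 24.4 and 34.9 against 114, 60.3 and 52.3, a log2 difference of -1.43 ± 0.44 (SE; limma adjusted p = 0.0270). The partner subunit ARNT held 1433, 1627 and 1540.4 under atirmociclib and 1795, 1867 and 2205 under AU2-94, a log2 difference of -0.35 ± 0.09 (SE; limma adjusted p = 0.00696). CITED2 held 1349, 1331 and 1322 against 1586, 1458 and 1581, again without overlap, a log2 difference of -0.21 ± 0.06 (SE; limma adjusted p = 0.0122). HIF1A and EGLN2 went the other way. HIF1A held 3731, 4292 and 4189 under atirmociclib and 3414, 3478 and 3411 under AU2-94, a log2 difference of 0.24 ± 0.07 (SE; limma adjusted p = 0.0144). EGLN2 held 719, 805 and 758 against 676, 680.0 and 629, a log2 difference of 0.20 ± 0.07 (SE; limma adjusted p = 0.0376). With the replicate number as a block the adjusted p of EGLN2 was 0.0539 (limma). With libraries scaled to equal totals, which moved the median of all genes in this contrast by -0.10 on the log2 scale, the differences were 0.14 for HIF1A (limma adjusted p = 0.162) and 0.095 for EGLN2 (limma adjusted p = 0.342), and both calls were lost.

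Several of these calls were lost without 1 of the 6 libraries compared. The call for ARNT was lost without AU2-94 replicate 3 (limma adjusted p = 0.0511), and that for CITED2 without AU2-94 replicate 1 or 3, with a limma adjusted p of up to 0.0531. For HIF1A it was lost without atirmociclib replicate 2 or 3 (up to 0.0702 in limma), and for EPAS1 without AU2-94 replicate 1 or atirmociclib replicate 1 or 2 (up to 0.13), the first of these holding the highest EPAS1 value of all 36 libraries. For HIF1A-AS3 it was lost without any 1 library other than atirmociclib replicate 3 (up to 0.132), and for EGLN2 without any other than atirmociclib replicate 1 (up to 0.150). The direction held in all of these fits, with log2 differences of -1.70 to -1.22 for HIF1A-AS3, -1.65 to -1.09 for EPAS1 and -0.41 to -0.26 for ARNT. The calls for HIF1A-AS3 and EPAS1 were also lost without a filter on low values (limma adjusted p = 0.0816 and 0.0547), with quantile normalisation (0.0830 and 0.0546) and without a trend (0.0635 and 0.0536), and that for HIF1A with quantile normalisation (0.209). With only the groups compared in the fit, not all calls of this contrast were kept.

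At 1 µM and 72 h, atirmociclib minus AU2-94 passed for 1 of 10 members beside 8.24% of all genes: CITED2 held 1273, 1144 and 1206 against 1371, 1407 and 1384, a log2 difference of -0.20 ± 0.06 (SE; limma adjusted p = 0.0308), lost without any 1 library other than atirmociclib replicate 1 (limma adjusted p of up to 0.148) and with only the groups compared in the fit (0.0713). HIF1A-AS3 held 12.2, 40.8 and 55.9 under atirmociclib and 82.7, 71.8 and 97.8 under AU2-94 without overlap, but its log2 difference of -1.42 ± 0.48 (SE) did not pass (limma adjusted p = 0.0778, 95% interval -2.42 to -0.42). With the replicate number as a block it passed (SE 0.36; limma adjusted p = 0.0226). At 1 µM and 24 h, 1 member passed beside 4.64%: ARNT held 1922, 1572 and 1812 under atirmociclib and 1425, 1365 and 1417 under AU2-94, a log2 difference of 0.33 ± 0.07 (SE; limma adjusted p = 0.00866). This call was lost only without replicate 1 of atirmociclib, the highest of the 3 (limma adjusted p = 0.0587), and with only the groups compared in the fit (0.0529).

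In the other 5 comparisons of compounds 0 of 10 members passed in limma. They were atirmociclib minus AU2-94 at 2 µM and 24 h (beside 9.44% of all genes; 2 members at an unadjusted p of 0.05 or less), ribociclib minus AU2-94 at 24 h (0.0372%; 2 members) and 72 h (3.34%; 4 members), and atirmociclib at 2 µM minus ribociclib at 24 h (4.64%; 2 members) and 72 h (9.18%; 1 member). The intervals do not show that the compounds acted alike. At 24 h ribociclib minus AU2-94 gave a log2 difference of -1.75 for HIF1A-AS3 (95% interval -3.39 to -0.10) and -0.68 for EGLN3 (-1.38 to 0.02), and at 72 h -1.06 for HIF1A-AS3 (-2.07 to -0.06). Atirmociclib minus ribociclib at 72 h gave -0.38 for HIF1A-AS3 (-1.38 to 0.62). VHL was the most tightly bounded member: at 24 h its intervals were -0.13 to 0.05 for atirmociclib minus AU2-94 at 2 µM, -0.13 to 0.05 for ribociclib minus AU2-94 and -0.09 to 0.10 for atirmociclib minus ribociclib. Intervals are not adjusted for the number of comparisons.

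**Figure D3:**
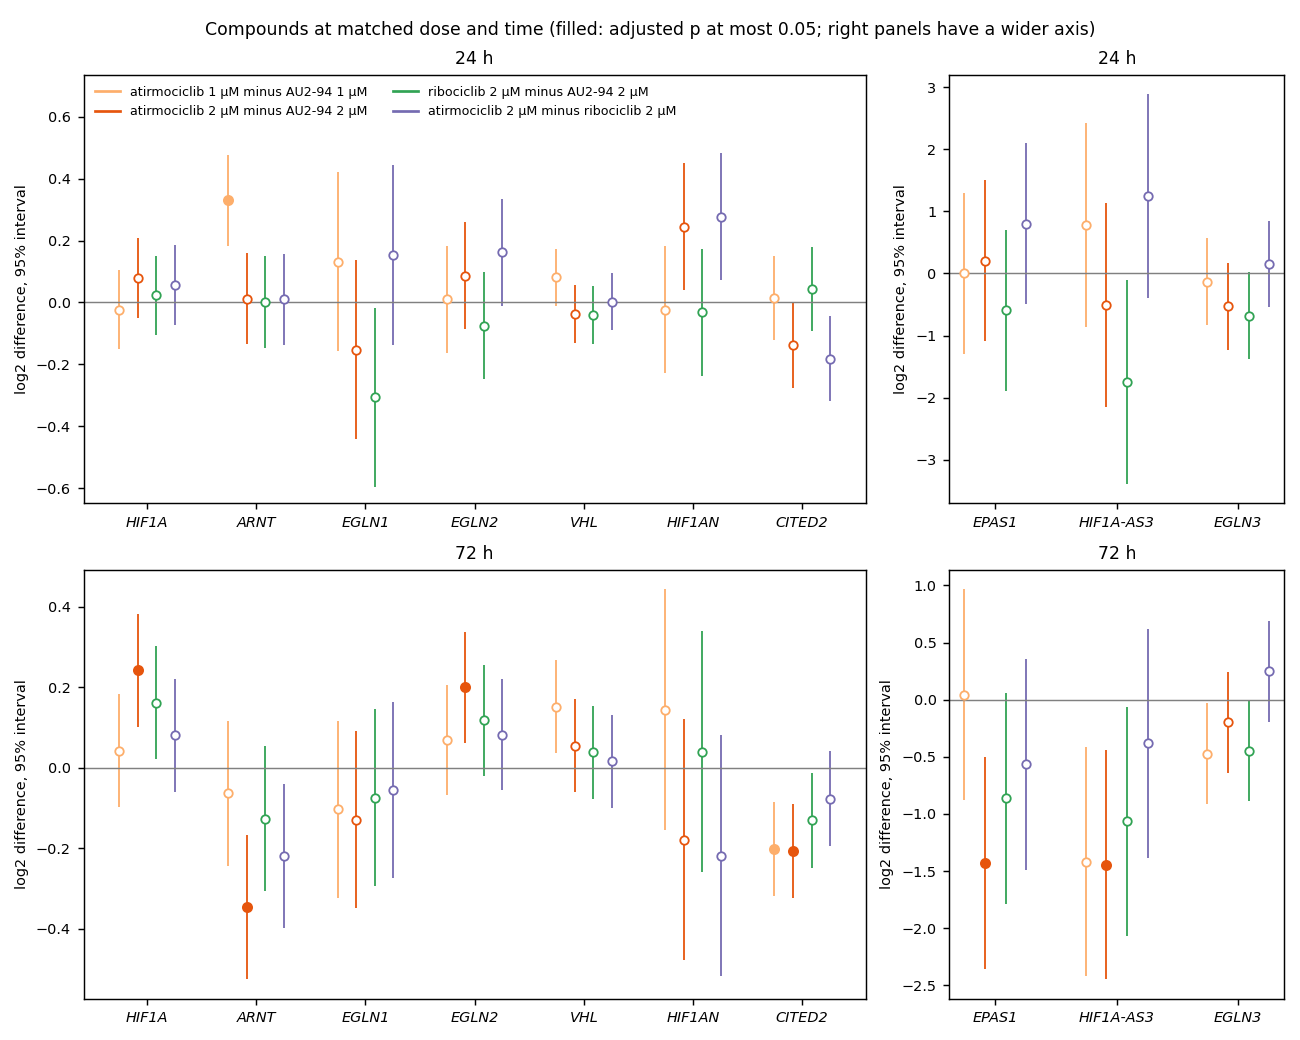
Log2 difference between compounds (vertical axis, log2(normalised count + 1), points with unadjusted 95% intervals) for each gene (horizontal axis) at 24 h (top) and 72 h (bottom), filled where the limma adjusted p is at most 0.05, with the right panels on a wider axis. At 72 h, 6 of the 10 differences of atirmociclib minus AU2-94 at 2 µM are filled, those of HIF1A-AS3 and EPAS1 at -1.44 and -1.43.

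Dose made no difference that passed. For 2 µM minus 1 µM, 0 of 10 members passed in limma in each of 4 comparisons: AU2-94 at 24 h (beside 0.409% of all genes; 2 members at an unadjusted p of 0.05 or less), atirmociclib at 24 h (0.0124%; 1 member), AU2-94 at 72 h (0%; 1 member) and atirmociclib at 72 h (2.19%; 2 members). For HIF1A-AS3 the log2 differences and their 95% intervals were 0.83 (-0.81 to 2.48) for AU2-94 and -0.44 (-2.09 to 1.20) for atirmociclib at 24 h, and -0.30 (-1.30 to 0.70) and -0.32 (-1.33 to 0.68) at 72 h. For EGLN1 under AU2-94 at 24 h the difference was 0.33 (0.04 to 0.62). For ARNT under atirmociclib the value at 24 h was -0.22 (-0.37 to -0.07) and -0.30 (-0.48 to -0.12) at 72 h. Each of the 4 intervals of HIF1A-AS3 reached beyond a log2 difference of 1 in at least 1 direction.

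In vehicle cells 2 of the 10 members differed between 72 h and 24 h, beside 7.5% of 16850 genes. CITED2 rose from 1113, 1159 and 1188 to 1419.6, 1406 and 1522 normalised counts, a log2 difference of 0.33 ± 0.06 (SE; limma adjusted p = 3.47e-04), a call kept in all 6 fits without 1 library. EGLN2 fell from 691, 742 and 708 to 630.0, 563 and 608, a log2 difference of -0.25 ± 0.07 (SE; limma adjusted p = 0.0253), and the call was lost without replicate 2 or 3 of vehicle at either time (limma adjusted p of up to 0.141) and with only the groups compared in the fit (0.0971). These are the members whose treated libraries changed sides of vehicle between the times. Under the 5 treatments EGLN2 had group means of 591 to 662 at 24 h and 662 to 760.5 at 72 h. EPAS1 held 13.1, 39.4 and 32.2 in vehicle at 24 h and 47.2, 76.0 and 51.3 at 72 h without overlap, but its log2 difference of 1.12 ± 0.57 (SE; 95% interval -0.04 to 2.28) did not pass (limma adjusted p = 0.254). EGLN3 had a difference of 0.55 ± 0.30 (SE; 95% interval -0.05 to 1.16) and did not pass (limma adjusted p = 0.29).

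Within treated groups at 24 h, the libraries of HIF1A-AS3 and EGLN3 took mostly the same places at the extremes. The library with the highest HIF1A-AS3 value was also the highest for EGLN3 in 4 of 5 treated groups, and the lowest was the lowest in 4 of 5. EGLN1 shared the highest library in 2 of 5 groups and the lowest in 4, while HIF1A shared them in 2 and 1 and VHL in 1 and 1. At 72 h EGLN3 shared the highest library in 3 of 5 and the lowest in 1 of 5. The counts at 72 h were 2 and 2 for EGLN1, 0 and 2 for HIF1A and 3 and 3 for VHL. At that time VHL thus matched HIF1A-AS3 at least as often as EGLN3 did. Replicate 3 of atirmociclib at 2 µM at 24 h held the lowest value of its group for HIF1A-AS3 (28.5), EGLN3 (109) and EGLN1 (1026). PLOD2, a lysyl hydroxylase of collagen, held 570.1, 427 and 44.7 in that group, and NDUFA4L2, a mitochondrial protein known as a HIF target, held 2497, 1869 and 201. Replicate 1 of AU2-94 at 1 µM at 24 h was likewise lowest for HIF1A-AS3, EGLN3, EGLN1, PLOD2 and NDUFA4L2. In vehicle at 24 h replicate 2 held the highest value for HIF1A-AS3 (17.0), PLOD2 (24.1) and NDUFA4L2 (113) and the lowest for EGLN3 (123). With 3 libraries a group these are descriptions, and the part of culture, harvest or library differences in them was not tested.

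**Figure D4:**
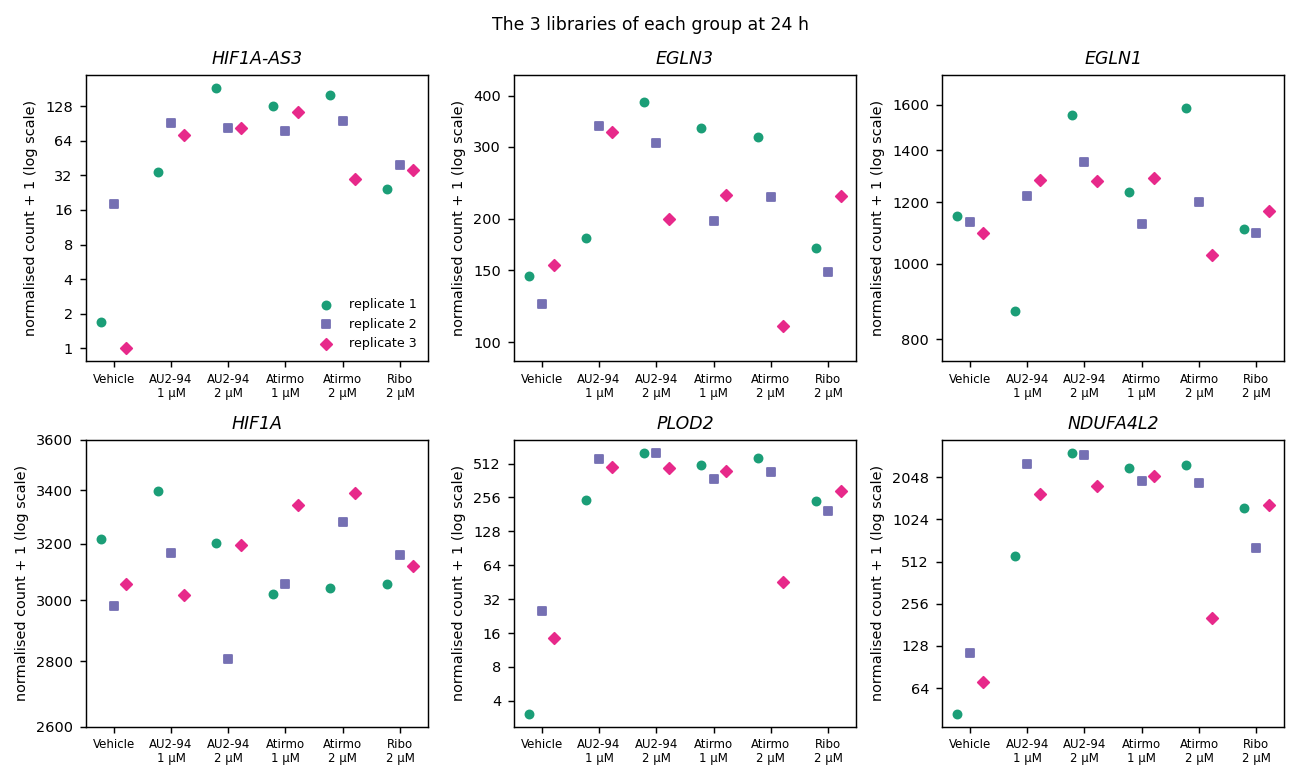
Normalised count + 1 (vertical axis, log scale) of HIF1A-AS3, EGLN3, EGLN1, HIF1A, PLOD2 and NDUFA4L2 in the 3 libraries of each group at 24 h (horizontal axis), one symbol per replicate number. Replicate 3 of atirmociclib at 2 µM lies lowest in its group for HIF1A-AS3 (28.5), EGLN3 (109), EGLN1 (1026), PLOD2 (44.7) and NDUFA4L2 (201) and highest for HIF1A.

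Genes of like pattern were sought among 12470 genes by Pearson's r of the mean log2 level over the 12 groups, a description in which all genes come from the same 36 libraries. The 12 groups include vehicle at each time, so r takes in the differences from vehicle on which the family was chosen. It lends no support. For HIF1A-AS3 they were PLOD2 (r = 0.978), ZMIZ1-AS1 (0.971), NDUFA4L2 (0.968) and PIGA (0.967). For EGLN3 the likeness was weaker, led by SLC25A36 (r = 0.856), DHRS3 (0.815), VIM (0.801) and INSIG2 (0.8). HIF1A was most like EPS8L2 (r = 0.972), MBOAT7 (0.971), MYO1C (0.962) and MMP15 (0.952). EPAS1 was most like MDM4 (r = 0.939), CTDSP2 (0.938), ANKRD10 (0.933) and PYGL (0.928), and CITED2 most like DSC2 (r = 0.903), DSC1 (0.846), ZNF275 (0.825) and IDH2 (0.820).

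Other genes of the pathway were counted from 2 lists, written with earlier results of these libraries known. Their counts and medians against vehicle are description and lend no support, since the family was chosen on these contrasts. Of 32 known HIF target genes outside the family, 31 passed the filter, CA9 being too scarce. At 24 h, 21, 25, 25, 19 and 18 of the 31 passed above vehicle for AU2-94 (1 then 2 µM), atirmociclib (1 then 2 µM) and then ribociclib, with 0, 0, 0, 0 and 1 below. In the same order, 14.3%, 16%, 16.6%, 18.6% and 16.8% of all genes tested passed above vehicle and 13.5%, 14.9%, 15.4%, 16.2% and 15.2% below. At 72 h 23, 24, 22, 23 and 23 of the list passed above with 0, 1, 2, 1 and 1 below, where 15.4%, 14.2%, 20%, 20.9% and 15.5% of all genes passed above and 17%, 15.3%, 19.8%, 19.6% and 15.4% below. The median log2 difference of the list was 0.63, 0.88, 0.74, 0.55 and 0.45 at 24 h and 0.70, 0.66, 0.60, 0.56 and 0.60 at 72 h, where medians over all genes tested lay between -0.0083 and 0.0059. NDUFA4L2 passed in all 10 comparisons, with log2 differences of 4.22, 5.18, 4.93, 3.81 and 3.85 at 24 h and 5.12, 4.70, 4.16, 3.63 and 3.49 at 72 h. PLOD2 passed in all 10, with 5.28, 5.79, 5.40, 4.43 and 4.53 at 24 h and 6.27, 6.00, 5.38, 5.37 and 5.42 at 72 h. Its vehicle libraries held 2.08, 24.1 and 13.3 normalised counts at 24 h and 2.08, 4.28 and 3.52 at 72 h. With values so near the floor of 3, the PLOD2 differences depend on the pseudocount and are no measure of fold. BNIP3, a mitophagy receptor, passed in all 10 with 1.02 to 1.46. VEGFA, the angiogenic growth factor, passed in 2 of 5 at 24 h and all 5 at 72 h, with 0.53 to 1.35. ANKRD37 passed in 4 of 5 at each time, with 0.51 to 1.48. Between compounds the list passed at 72 h in 0 genes above and 5 below for atirmociclib minus AU2-94 at 1 µM (beside 4.53% of all genes above and 3.7% below), and in 1 above and 4 below at 2 µM (beside 11.1% and 8.73%). NDUFA4L2 was among those lower at 2 µM, by a log2 difference of -1.07 ± 0.36 (SE; limma adjusted p = 0.0439).

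Of 22 further parts of the HIF machinery, 21 had a value and 19 passed the filter. Against vehicle, 4 to 5 passed above and 3 below at 24 h, and 1 to 4 above and 6 to 7 below at 72 h, with a median log2 difference of the list between -0.091 and 0.039. Over all genes tested at 24 h, 14.3% to 18.6% passed above vehicle and 13.5% to 16.2% below. The shares at 72 h were 14.2% to 20.9% above and 15.3% to 19.8% below. SIAH2, a ubiquitin ligase that acts on EGLN proteins, passed below vehicle under all 5 treatments at 72 h, with log2 differences of -0.50, -0.47, -0.61, -0.52 and -0.48, and under none at 24 h (-0.10, -0.04, 0.01, -0.11 and -0.06). The elongin subunits of the VHL ligase differed: ELOB passed above vehicle under all 5 treatments at 24 h (0.32, 0.26, 0.27, 0.33 and 0.37) and ELOC below under all 5 at 72 h (-0.40, -0.33, -0.24, -0.20 and -0.22). CUL2, the scaffold of that ligase, passed below vehicle at 72 h in all but AU2-94 at 2 µM (-0.35, -0.22, -0.38, -0.43 and -0.37). The log2 differences of ARNT2 ran from -0.14 to 0.28 against vehicle, where none passed, and HIF3A never exceeded 2.96 normalised counts. Between compounds, atirmociclib minus AU2-94 passed at 72 h for 1 gene of the list above and 0 below at 1 µM, and for 4 above and 1 below at 2 µM. Over all genes tested, 4.53% passed above and 3.7% below at 1 µM, and 11.1% above and 8.73% below at 2 µM. ELOB was among those higher at 2 µM, by a log2 difference of 0.27 ± 0.09 (SE; limma adjusted p = 0.0317), and ARNT2, an alternative partner of the alpha subunits, was the 1 lower, by -0.40 ± 0.12 (SE; limma adjusted p = 0.0260). Both lists were chosen with earlier results of these libraries known and are not independent evidence. Their genes were not followed through the alternative fits, so how far the calls for NDUFA4L2, ELOB and ARNT2 depend on processing was not tested. In atirmociclib minus AU2-94 at 2 µM and 72 h, equal library totals moved the median of all genes by -0.10 on the log2 scale.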

How the data were processed

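Total RNA sequencing of 36 LNCaP libraries was used, in 12 groups of 3 biological replicates taken from the sample labels. Per the study's methods and the submitters' processing notes, the authors prepared libraries with the Universal Plus Total RNA-Seq with NuQuant kit, ran nf-core/rnaseq 3.18.0, aligned reads to GRCh38 with STAR 2.6.1d and used DESeq2; the read counter, its strand setting and the annotation release are not given in the sources used here. The deposited table holds normalised counts, a signal that is not whole, so count models were not used on it. The labels also give vehicle a dose of 2 µM, which was not used.

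Values were put on the scale log2(normalised count + 1), and limma 3.58.1 (R 4.3.3, lmFit and trended eBayes) was run on genes reaching 10 normalised counts in 3 or more fitted libraries. One fit held the 6 groups of a time, and another held all 12 for changes over time. Adjusted p-values (Benjamini-Hochberg) cover all genes of a contrast, and 0.05 or less is called passing, in either direction. The fit was tested on simulated data, with changes planted only in genes above a minimum mean level. The simulated spread was smaller than that of HIF1A-AS3 and EPAS1 within groups, so the simulation does not cover genes like these. Positions, exon lengths and symbols came from GENCODE 44 and promoters from RefSeq, and similar stretches were found with BLAST 2.17.0. The SDs describe spread between the libraries of a group. Each SE is that of a limma difference, from a spread shared by all groups of the fit and moderated over genes. It is not the spread of the groups compared alone. The floor of 3 normalised counts covers counting error only. Every column belonged to a labelled sample. The luminal marker list is given without 2 genes that are not reported here.

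The members and the 2 gene lists were chosen with earlier results of these data known. All 10 members are named, with the 4 genes of highest Pearson's r for each of HIF1A-AS3, EGLN3, HIF1A, EPAS1 and CITED2 among genes with a mean of at least 50, and a few genes of each list. The labels give the replicate number as a batch. The main fits did not use it, and it entered as a block in an alternative fit only. Correlations of same-numbered libraries' deviations from their group means averaged -1.13e-05 at 24 h and -0.000503 at 72 h over 45 pairs each. Alternatives were other pseudocounts, filters, scalings, a replicate block, no trend, smaller fits and each library left out.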

Additional observations from a re-analysis of the deposited data

Results flagged for a closer look

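The difference from vehicle at 72 h minus that at 24 h passed for 2 members, which is what marked them here. It is a description, since the family was chosen with the differences from vehicle known. For EGLN2, the prolyl hydroxylase with a read-through partner, it was 0.44 for AU2-94 at 1 µM, 0.34 for AU2-94 at 2 µM, 0.50 for atirmociclib at 1 µM, 0.45 for atirmociclib at 2 µM and 0.53 for ribociclib on the log2 scale, each with an SE of 0.10. For CITED2, which competes for the coactivators of the alpha subunits, it was -0.43 for atirmociclib at 1 µM and -0.27 for ribociclib, each with an SE of 0.08. The 5 treatments share their vehicle libraries at both times, and in vehicle alone EGLN2 was lower and CITED2 higher at 72 h, by -0.25 and 0.33 on the log2 scale. The part of vehicle and of seeding density in these values was not tested.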

How the results depend on the processing

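Single values were followed for the 34 that passed against vehicle, between compounds or for vehicle over time. None of these reversed under any alternative. The 7 passing values for the change of effect were followed as a count only, so their sign under the alternatives was not tested. Of the 34 passing values of members, 34 of 34 stayed past the threshold with a pseudocount of 8, 33 with 0.5, 31 without a filter, 29 with equal library totals, 33 with TMM factors computed from the deposited values, 30 with quantile normalisation, 30 without a trend and 27 with only the groups compared in the fit. With a filter that asks for a mean of 100 normalised counts, HIF1A-AS3 and EPAS1 dropped out and 22 of 22 others stayed. The replicate block left the counts of passing values at 24 against vehicle, 8 between compounds, 0 between doses, 2 for vehicle over time and 7 for the change of effect, and among members it changed 2 calls of atirmociclib minus AU2-94 at 72 h, that of EGLN2 at 2 µM, which was lost, and that of HIF1A-AS3 at 1 µM, which was gained. The 8 passing values between compounds became 5 with quantile normalisation and 5 with only the groups compared, and the 2 of vehicle over time became 1 with only the groups compared. Leaving out 1 library gave 20 to 27 values against vehicle, 4 to 8 between compounds, 0 to 0 between doses, 1 to 2 for vehicle over time and 6 to 10 for the change of effect, and 53 of 204 such fits lost the value's call. The cause of these losses was not tested, and the smaller fits held fewer samples. Low levels limit EPAS1 and HIF1A-AS3 most, with a median coefficient of variation of 48.3% and 45.5% within groups.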
